A study of Solanum lycopersicum with 9 samples.

Results

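A group of 59 tomato genes had their 3 lowest values in the leaf primordia (LP), below every library of the shoot apical meristem. They were picked from 9 laser-captured CEL-Seq libraries, 3 each of LP, of the peripheral zone (PZ) and of the central zone (CZ). A gene was taken if any library had it at a normalized count of 6 or more, if its highest LP value was below the lowest of the 6 PZ and CZ values, and if CZ was not wholly above PZ. Genes that the study names in its tables of selected genes were left out. Of the 34866 genes in the table, 4044 reached the minimum, and the 59 genes were 1.46% of those. Because the values in LP, PZ and CZ chose the genes, their low level in LP is a description here and carries no test.

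The shoot apical meristem is the dome of dividing cells at the tip of the shoot. Its CZ holds the stem cells, its PZ surrounds them and gives rise to leaves, and the LP are the young leaves that have already left the dome. Among the genes that the study lists as reduced in LP is the homeobox gene STM, which it describes as needed to form the meristem. Another is CUC2, which it describes as setting the border of the CZ.

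All 3 zones came from seedlings of 12 to 14 days of the same line, M82 SP+, grown in 11 h of light and 13 h of darkness. Each library pooled 3 cryosections of 10 µm. The LP tissue was cut from the abaxial side of the primordium, so LP values do not cover its adaxial side. The zones were outlined by chlorophyll fluorescence, visible in LP, beginning in PZ and missing in CZ, and not by marker genes. CEL-Seq counts the 3′ ends of transcripts, so values were not divided by gene length. Reads on genes numbered 97353, 78363 and 40286 in LP1 to LP3, 58412, 62913 and 66596 in PZ1 to PZ3, and 144665, 64993 and 51659 in CZ1 to CZ3. A single read was worth 0.432, 0.603 and 1.09 normalized counts in LP1, LP2 and LP3, 0.771, 0.740 and 0.690 in PZ1 to PZ3, and 0.288, 0.667 and 0.851 in CZ1 to CZ3. A value of 0 allows up to 3 reads, which is 3.28 normalized counts in LP3, the shallowest library, and 0.865 in CZ1, the deepest. These limits cover counting error only.

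The zone labels were compared with marker genes, which the study itself had selected on these samples. STM had 1.3, 0.6 and 1.09 normalized counts in LP, 12.34, 1.48 and 4.83 in PZ, and 9.81, 4.67 and 17.01 in CZ. The leaf gene YABBY1 averaged 26.8 ± 12.0 in LP, 11.2 ± 3.97 in PZ and 7.60 ± 6.41 in CZ (SD, n = 3 each). YABBY3 averaged 11.1 ± 6.15 in LP, 6.49 ± 3.87 in PZ and 2.67 ± 1.63 in CZ, with LP and PZ overlapping. Genes of the small subunit of Rubisco (RBCS) were also markers of LP. Solyc03g034220.2 averaged 130 ± 23.9 in LP, 59.8 ± 13.4 in PZ and 48.9 ± 23.7 in CZ. Solyc02g085950.2 had 84.64, 62.76 and 107.06 in LP, 29.3, 29.61 and 37.24 in PZ, and 14.42, 79.36 and 27.22 in CZ. In the latter gene CZ2 lay above LP2. Of the other genes that the study lists as reduced in LP, CUC2 and SPT, a bHLH gene, also lay below all 6 meristem libraries. SVP, a MADS-box gene known as a repressor of flowering in Arabidopsis, did so too but had CZ wholly above PZ. The bZIP genes named FD and the AP2 gene overlapped between LP and the meristem: for AP2, LP had 1.3, 1.21 and 2.18, PZ had 3.85, 1.48 and 2.07, and CZ had 8.37, 8.0 and 6.81.

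Before the exclusions, 65 of the 4044 genes (1.61%) lay lowest in all 3 LP libraries. Leaving out those with CZ wholly above PZ gave 62 (1.53%), and STM, CUC2 and SPT were then removed as genes of the study's tables. Those left out for CZ above PZ were SVP, Solyc02g076840.2 and Solyc09g066500.2. The last of these, named after its values were seen, had 21.59, 19.91 and 19.66 in LP, 30.07, 24.43 and 29.65 in PZ, and 32.6, 36.68 and 39.98 in CZ. Of the 59 genes, 58 are nuclear and 1, ycf1, is encoded in the plastid. The sources used here describe 5 of the 58 nuclear genes, against 109 of all nuclear genes with the minimum, so most genes are given by their ID alone. These descriptions come from the part of the study's supplementary sheet that could be read. A gene without a description here may have one elsewhere.

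**Figure D1:**
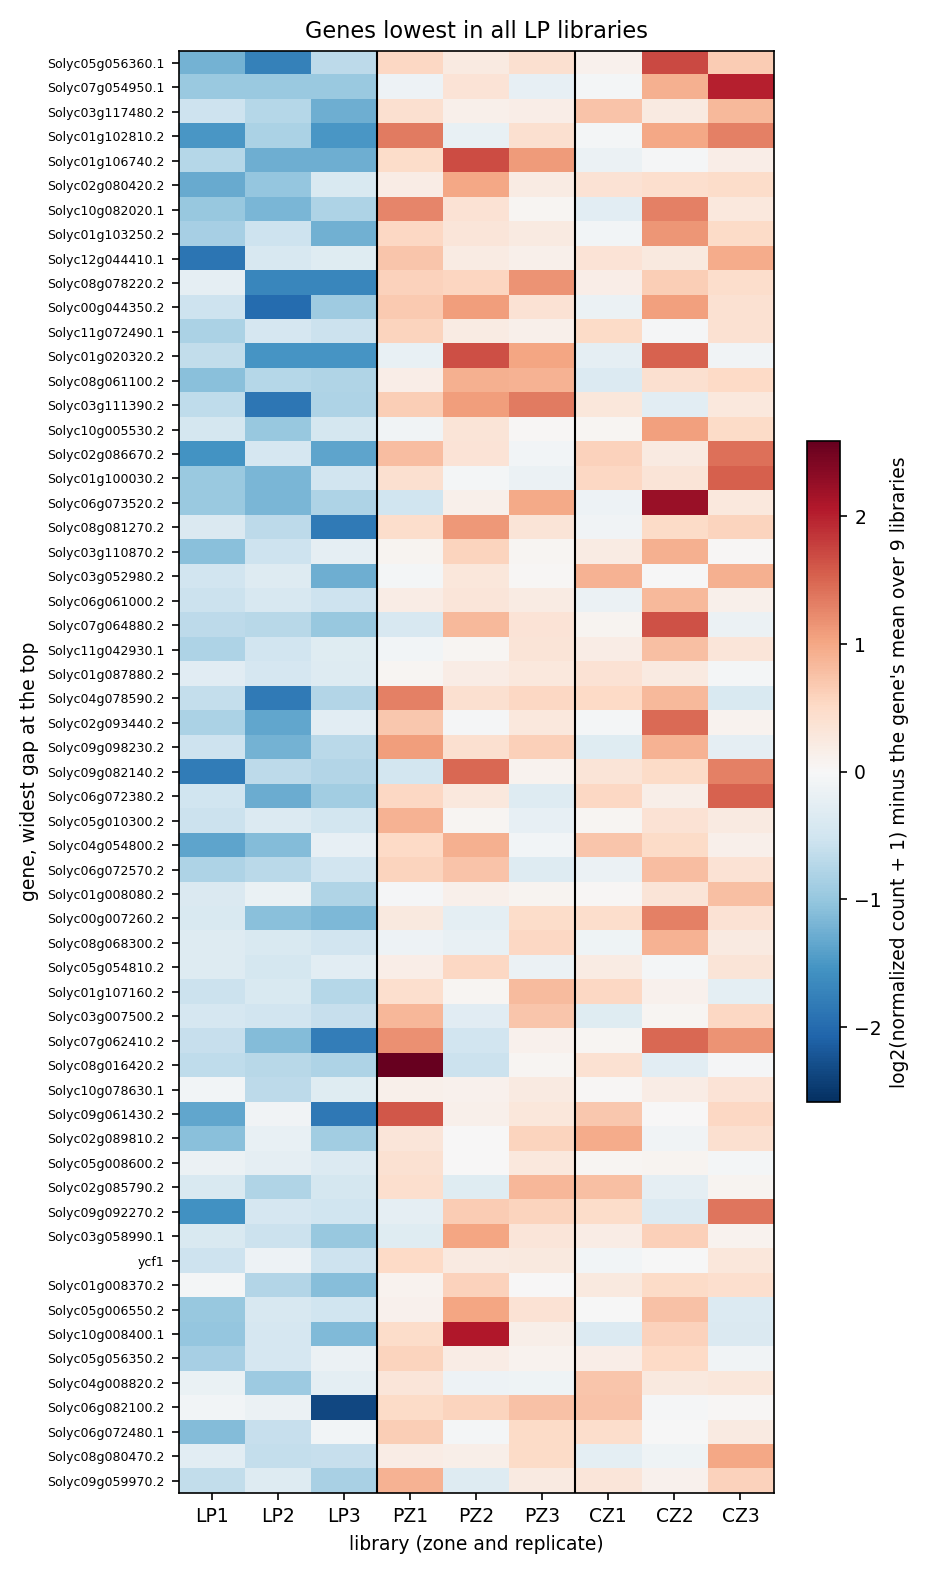
Genes lowest in all LP libraries. Rows are the 59 genes, ordered from the widest to the narrowest gap between LP and the meristem, and columns are the 3 LP, 3 PZ and 3 CZ libraries. Colour shows log2(normalized count + 1) minus the mean of the gene over the 9 libraries. The LP columns are blue by the choice of genes, and the red in the other 6 columns varies from gene to gene, with 13 genes highest in PZ1, 13 in PZ2, 14 in CZ2 and 11 in CZ3.

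Together the 59 genes made up 0.804%, 0.678% and 0.762% of the reads in the LP libraries. Their share averaged 0.748% ± 0.0645 in LP, 1.46% ± 0.0864 in PZ and 1.70% ± 0.187 in CZ (SD, n = 3 each). Their normalized counts summed to 331 ± 9.50 in LP, 669 ± 35.7 in PZ and 731 ± 99.2 in CZ. Without the 4 most abundant of them the sums were 183 ± 3.59 in LP, 443 ± 23.9 in PZ and 449 ± 62.6 in CZ. Fewer cells that express a gene and less RNA per cell cannot be told apart in such pooled tissue. All reads on plastid genes were 0.0597% ± 0.0252 of the reads in LP, 0.0590% ± 0.0114 in PZ and 0.0604% ± 0.0189 in CZ. This share did not move with the 59 genes, but it rests on only 29 to 59 plastid reads per library.

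Most of the genes were weakly expressed and were reduced in LP without being silent. The median gene had a mean of 4.57 normalized counts over the 9 libraries, against 4.14 over all 4044 genes. The LP mean was a median 0.366 of the meristem mean (range 0 to 0.727), against 0.944 over all genes with a mean above 0. On the log2(normalized count + 1) scale the difference between LP and the mean of PZ and CZ had a median of -1.22 (range -1.91 to -0.36), against -0.02 over all genes. In 44 of the 59 genes the meristem mean was at least 2 times the LP mean. Reads were present in all 3 LP libraries for 43 genes, and in 43 genes no LP library reached 6. Only 1 gene was at 0 in every LP library. LP1 held no read for 4 of the genes, LP2 for 9 and LP3 for 9.

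In 4 genes the description fell in a pathway list: a ribosomal protein, a proteasome subunit, a protease and a plastid gene. The lists were not run over all genes, so no shared function is read from these 4. Solyc01g008080.2 encodes ribosomal protein S27, a part of the small subunit of the cytosolic ribosome. It had 44.05, 50.69 and 32.77 normalized counts in LP, 56.28, 62.93 and 60 in PZ, and 58.27, 72.03 and 98.68 in CZ. Its LP mean of 42.5 ± 9.06 was 0.625 of the meristem mean, the difference on the log2 scale being -0.66. Its end overlaps the neighbouring gene model Solyc01g008090.2, which averaged 20.8 in LP, 13.6 in PZ and 17.0 in CZ, so the assignment of reads between them is uncertain.

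Solyc01g008370.2 encodes a regulatory subunit of the 26S proteasome, the complex that degrades proteins tagged with ubiquitin. Its values were 12.52, 7.24 and 5.46 in LP, 13.88, 19.99 and 13.1 in PZ, and 15.58, 18.67 and 17.87 in CZ. LP1 lay just under PZ3, and the other LP libraries lay well below the meristem. The means were 8.41 ± 3.67 in LP, 15.7 ± 3.77 in PZ and 17.4 ± 1.60 in CZ.

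Solyc00g007260.2 is described as a Sentrin-specific protease. Enzymes of this kind cut the small modifier SUMO from other proteins. It had 2.59, 1.21 and 1.09 in LP, 4.63, 2.96 and 5.52 in PZ, and 5.48, 10.67 and 5.1 in CZ, which rest on 9 reads in LP, 18 in PZ and 41 in CZ. It reached 6 in CZ2 only. For this gene and Solyc01g008080.2 the readable part of the study's supplementary sheet lists other CZ values than the deposited table used here. With those, CZ would lie wholly above PZ in both genes and neither would meet the rule. Only 5 of the 58 nuclear genes are described in that part of the sheet. For the other nuclear genes the sheet's values were not compared, so how many would still meet the rule with them is not known.

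The plastid gene ycf1 encodes a large protein proposed to sit in the inner envelope of the chloroplast. It had 4.32, 6.03 and 4.37 in LP, 10.02, 8.14 and 8.28 in PZ, and 6.35, 6.67 and 8.51 in CZ. These values rest on 24 reads in LP, 36 in PZ and 42 in CZ. LP2 was close to CZ1, the lowest meristem library, and PZ averaged 8.81 ± 1.05 against 7.18 ± 1.17 in CZ. The gene lies at positions 125294 to 130969 of the plastid genome, and a partial copy of it, annotated as a pseudogene, lies at 110369 to 111488, so reads of both may be shared. The other plastid gene that reached the minimum, clpP, a protease subunit, did not share the pattern: it had 2.59, 22.93 and 15.29 in LP, 5.4, 10.36 and 10.34 in PZ, and 4.9, 18.01 and 13.61 in CZ.

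Beyond these, 2 genes had a description outside the lists and were chosen after their values were seen. Solyc00g044350.2 is described as an EPIDERMAL PATTERNING FACTOR-like protein. In Arabidopsis this family consists of small secreted peptides that signal through receptor kinases of the ERECTA family. It had 1.73, 0 and 1.09 in LP, 5.4, 7.4 and 4.14 in PZ, and 2.6, 7.34 and 4.25 in CZ, from 5 reads in LP, 23 in PZ and 25 in CZ. The highest LP library was below the lowest meristem library, CZ1, by 0.40 on the log2 scale. Solyc01g020320.2, an unknown protein, had 0.86, 0 and 0 in LP, 1.54, 8.14 and 4.83 in PZ, and 1.44, 7.34 and 1.7 in CZ, so that PZ2 and CZ2 stood above the rest.

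Apart from Solyc01g008080.2, the most abundant of the genes have no description in the part of the study's sheet that could be read. Solyc10g078630.1 was the highest, with 61.75, 40.43 and 52.44 in LP, 71.7, 70.33 and 76.55 in PZ, and 66.64, 74.69 and 83.37 in CZ. The LP mean was 0.698 of the meristem mean, a modest reduction that rests on 258 reads in LP, 299 in PZ and 441 in CZ. Solyc05g054810.2 had 29.36, 27.16 and 30.59 in LP, 42.4, 54.79 and 33.79 in PZ, and 43.27, 36.01 and 47.64 in CZ. Its LP libraries were close together, with PZ3 the nearest above them. Solyc11g042930.1 had 16.84, 21.12 and 24.03 in LP, 28.53, 31.09 and 37.93 in PZ, and 34.33, 52.02 and 37.43 in CZ. In all 3 of these genes PZ and CZ overlapped. The 10 genes that stood at 6 or above in every library, among them these abundant ones, were still present in LP.

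Solyc01g100030.2 combined a high level with a large difference. It had 23.32, 19.91 and 32.77 in LP, 62.45, 45.16 and 42.07 in PZ, and 67.79, 59.36 and 137.82 in CZ, from 117 reads in LP, 203 in PZ and 486 in CZ. CZ3 was far above the others. The means were 25.3 ± 6.66 in LP, 49.9 ± 11.0 in PZ and 88.3 ± 43.1 in CZ. The difference between LP and the mean of PZ and CZ was -1.32 on the log2 scale (SE 0.25). Without CZ3 it was -1.14.

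Solyc08g061100.2 had 6.91, 9.05 and 8.74 in LP, 17.73, 30.35 and 30.34 in PZ, and 12.12, 21.34 and 22.97 in CZ. Here the 3 LP libraries were close together, PZ2 and PZ3 were highest, and PZ averaged 26.1 ± 7.28 against 18.8 ± 5.85 in CZ. The difference between LP and the meristem was -1.29 (SE 0.35).

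These last 2 genes were the only ones of the 59 that limma, fitted over all 4044 genes, called lower in LP than in the mean of PZ and CZ, at an adjusted p of at most 0.05 and at least 1.5-fold. That is 3.39% of the 59 genes, and 0.198% of all genes were called in this direction (0.915% in either). Since this contrast chose the genes, nothing is read from the count. The call of Solyc01g100030.2 was made under all 17 alternatives. That of Solyc08g061100.2 was lost without CZ2, CZ3, PZ2, PZ3, LP1, LP2 or LP3, each alone, as well as with edgeR or DESeq2 on the reads. A further gene, Solyc04g054800.2, chosen after its values were seen, was called without PZ3 or without LP3, each alone, with a pseudocount of 0.5 and with a replicate block. It had 3.89, 4.83 and 9.83 in LP, 16.96, 22.95 and 11.03 in PZ, and 19.62, 16.67 and 12.76 in CZ. Its end overlaps the gene model Solyc04g054790.1, which had 38.62 in PZ3 and at most 5.1 elsewhere.

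**Figure D2:**
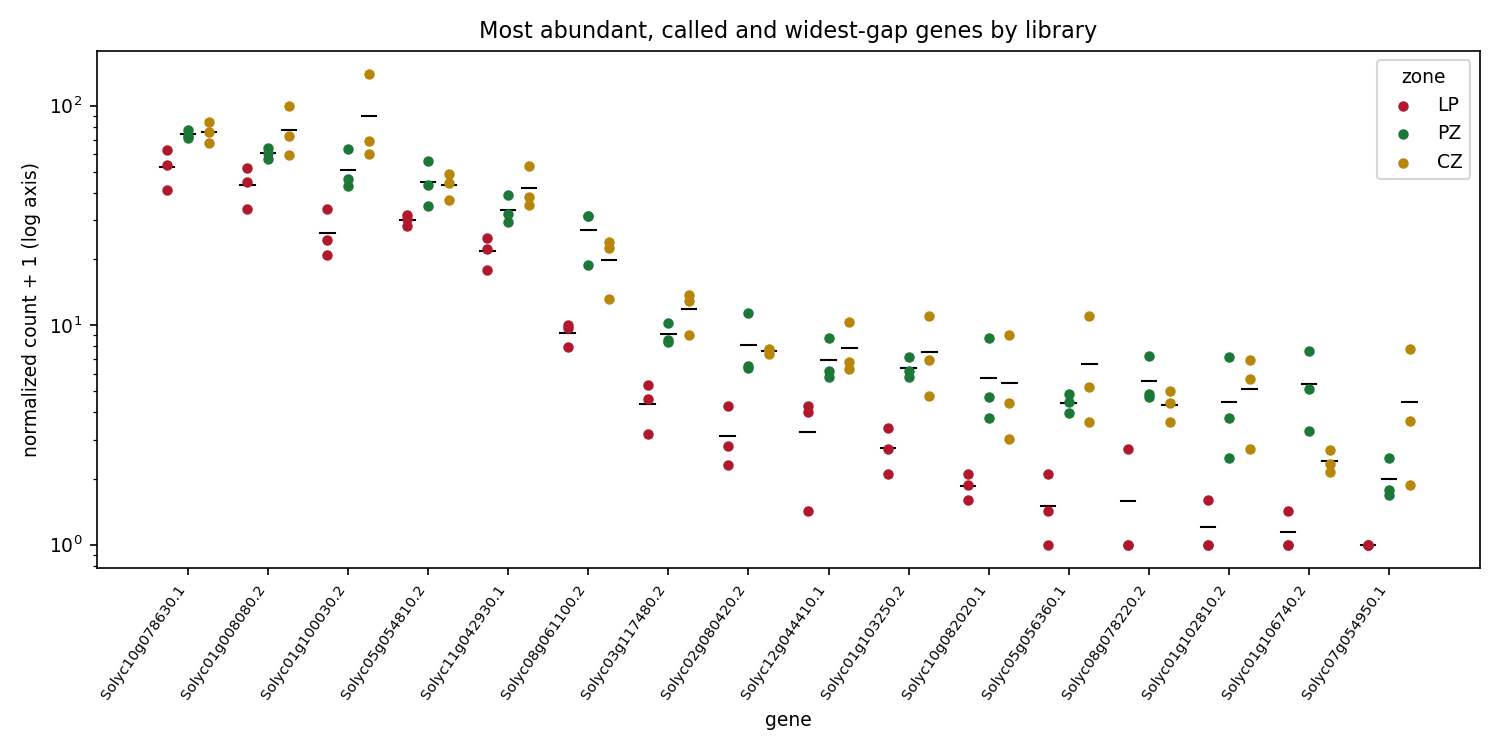
Levels of the most abundant, the called and the widest-gap genes by library. Points are normalized count + 1 on a log axis, a point per library, with LP, PZ and CZ side by side for each gene, and bars are the mean of the 3 libraries. In every gene the 3 LP points lie below the 6 others by the choice of genes, and in Solyc01g100030.2 a CZ library stands at 137.82.

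The 10 genes with the widest gap between the highest LP value and the lowest meristem value were mostly weak. The gap is given as the difference on the log2(normalized count + 1) scale. It was widest, at 0.78, in Solyc05g056360.1, which had 0.43, 0 and 1.09 in LP, 3.85, 2.96 and 3.45 in PZ, and 2.6, 10.0 and 4.25 in CZ. CZ2 alone reached the minimum, and LP held 2 reads in all. Solyc07g054950.1 followed with 0 in each LP library, 0.77, 1.48 and 0.69 in PZ, and 0.87, 2.67 and 6.81 in CZ. Its meristem values other than CZ3 lie at or under the level that a count of 0 allows in LP3, so no fold is given.

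In Solyc03g117480.2 the gap stood on more reads. This gene had 4.32, 3.62 and 2.18 in LP, 9.25, 7.4 and 7.59 in PZ, and 11.83, 8.0 and 12.76 in CZ, from 18 reads in LP, 33 in PZ and 68 in CZ. All 6 meristem libraries were above 6 and all LP libraries below. Its LP mean of 3.37 ± 1.09 was 0.356 of the meristem mean. Solyc02g080420.2 was alike, with 1.3, 1.81 and 3.28 in LP, 5.4, 10.36 and 5.52 in PZ, and 6.35, 6.67 and 6.81 in CZ. Its CZ values were nearly equal, at 6.61 ± 0.236. Solyc12g044410.1 had 0.43, 3.02 and 3.28 in LP, 7.71, 5.18 and 4.83 in PZ, and 5.77, 5.34 and 9.36 in CZ, with LP1 below the other LP libraries.

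The remaining 5 of these genes had between 1 and 9 reads in LP. Solyc01g103250.2 had 1.73, 2.41 and 1.09 in LP, 6.17, 5.18 and 4.83 in PZ, and 3.75, 10.0 and 5.96 in CZ. Solyc10g082020.1 had 0.86, 0.6 and 1.09 in LP, 7.71, 3.7 and 2.76 in PZ, and 2.02, 8.0 and 3.4 in CZ. In both, CZ2 was the highest library and CZ1 the lowest of the meristem. Solyc08g078220.2 had 1.73, 0 and 0 in LP, 3.85, 3.7 and 6.21 in PZ, and 2.6, 4.0 and 3.4 in CZ. Solyc01g102810.2 had 0, 0.6 and 0 in LP, 6.17, 1.48 and 2.76 in PZ, and 1.73, 4.67 and 5.96 in CZ, so LP held a single read. Solyc01g106740.2 also had a single LP read, with 0.43, 0 and 0 in LP, 2.31, 6.66 and 4.14 in PZ, and 1.15, 1.33 and 1.7 in CZ.

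**Figure D3:**
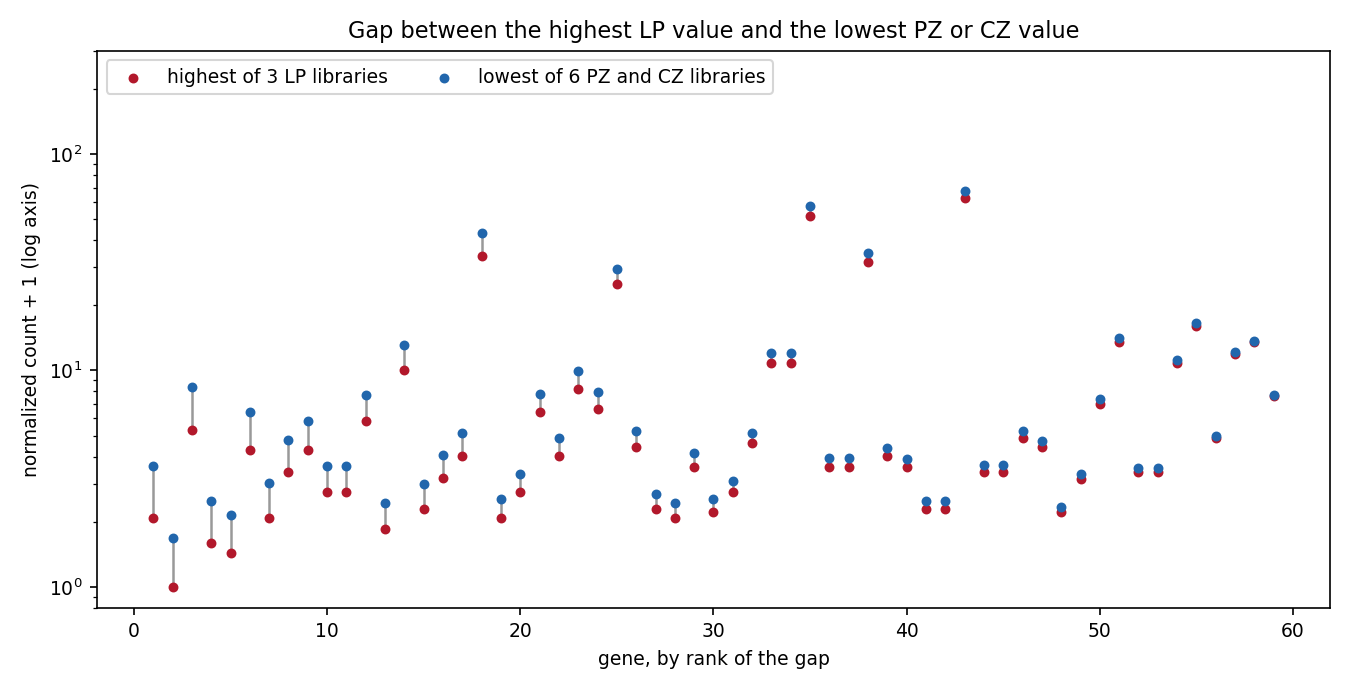
Gap between LP and the meristem for each gene. Pairs of points show the highest of the 3 LP values and the lowest of the 6 PZ and CZ values, as normalized count + 1 on a log axis, over the rank of the gap from 1 (widest) to 59 (narrowest). The gap is at most 0.78 on the log2 scale and closes to 0.0038 at the right.

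Across the 59 genes the gap had a median of 0.20, and quartiles of 0.11 and 0.37. No gene had a gap above 1, which would be 2-fold in normalized count + 1. The added 1 narrows the gap of weak genes. In Solyc05g056360.1 the lowest meristem value was 2.6 against 1.09 in LP, more than 2-fold in normalized counts. Just inside the rule stood Solyc09g059970.2, whose LP2 value of 6.64 was next to 6.66 in PZ2. Its other values were 5.18 and 4.37 in LP, 16.96 and 10.34 in PZ, and 10.96, 9.34 and 13.61 in CZ. Also near the edge were Solyc08g080470.2, with 12.52 in LP1 and 12.69 in CZ1, and Solyc06g072480.1, with 10.92 in LP3 and 11.11 in PZ2. Just outside stood Solyc04g049120.2, with 3.45 both as its highest LP and its lowest PZ value. The others at the edge were at 0 in LP and in meristem libraries alike. Solyc12g005170.1 had 98.04 in CZ2 and 0 elsewhere, and Solyc05g053400.1 had 65.51 in PZ3, 0.67 in CZ2, 0.85 in CZ3 and 0 elsewhere.

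A single read could end membership for many of the genes. With 1 more read in an LP library 32 genes would no longer be lowest there, and with 1 read fewer in a meristem library 32 would not, which together were 35 genes. The other 24 stayed lowest in LP with a change of 1 read either way, among them Solyc03g117480.2, Solyc01g100030.2, Solyc08g061100.2 and Solyc00g044350.2. LP held at most 10 reads in all for 30 of the genes. With TMM scaling of the reads 32 of the 59 genes still met the rule, and 52 did with the same total for each library. The highest LP library was LP1 in 26 genes, LP2 in 18 and LP3 in 15.

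The minimum of 6 was met by a single library in 19 of the genes (32.2%), against 40.9% of all 4044 genes, by 2 to 5 libraries in 20 genes and by 6 or more in 20. In 8 genes the highest meristem library was at least 2 times the next. Solyc08g016420.2 was of this kind, chosen after its values were seen, with 20.82 in PZ1 and 1.48 to 3.75 in the other meristem libraries, against 1.3, 1.21 and 1.09 in LP. Solyc06g073520.2, chosen likewise, had 16.01 in CZ2 against 0.86, 0.6 and 1.09 in LP, with 1.54 to 6.21 in its other meristem libraries.

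Within the meristem the 59 genes were divided between PZ and CZ. The mean of the log2 values was higher in PZ than in CZ for 29 genes and lower for 30, with a median difference of -0.01 (range -0.95 to 1.09), against 0.08 over all 4044 genes. With TMM scaling the median of all genes moved by -0.23, so the split between PZ and CZ is relative to the authors' scaling. The choice of genes bears on this, since genes with CZ wholly above PZ were left out. PZ lay wholly above CZ in 2 genes, against 6.68% of all genes. These were Solyc01g106740.2, given above, and Solyc03g111390.2, chosen after its values were seen, which had 4.63, 6.66 and 8.28 in PZ and 3.46, 2.0 and 3.4 in CZ, with 1.3, 0 and 1.09 in LP. limma called none of the 59 genes between PZ and CZ, where 0.321% of all genes were called. At an unadjusted p under 0.05 there was 1 gene of the 59 by limma, and likewise 1 by edgeR and 1 by DESeq2. Over all 4044 genes there were 259 by limma, 286 by edgeR and 188 by DESeq2. The gene of the 59 was in each case Solyc01g100030.2, lower in PZ by limma's difference of -0.73 (SE 0.29). With limma none of the 59 was left without CZ3 or without PZ3.

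The choice was also made with an LP library left out, and that library was then read. Here genes with CZ wholly above PZ were kept, so 61 genes were lowest in all LP libraries, the study's own genes left out. LP1 was below all 6 meristem libraries in 61 of the 136 genes picked on the others (44.9%), LP2 in 61 of 169 (36.1%) and LP3 in 61 of 149 (40.9%). Summed this was 183 of 454 picks (40.3%), in which each of the 61 genes counts 3 times. The same reading gave 105 of 345 picks (30.4%) for genes lowest in PZ and 240 of 502 (47.8%) for genes lowest in CZ. The left-out library was compared with the same 6 meristem values that had picked the genes, and a pick on high meristem values by itself makes a further low value common. The shares are therefore a description, and nothing about the stability of the group is read from them.

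Without the study's own genes, 3976 genes remained, and 61 of them were lowest in LP, 35 lowest in PZ and 80 lowest in CZ. In the opposite direction 84 genes were highest in all LP libraries, 68 in all PZ and 55 in all CZ libraries. The differences between zones in these counts were not tested, and the size of the LP group was not tested either.

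The genes were spread over all chromosomes of the SL2.50 assembly. Chromosome 1 held 9 of them and 579 of all genes with the minimum, chromosomes 3, 5, 6 and 8 held 6 each, and chromosome 12 held 1 of its 227. A further 2 of 17 lay on sequence not placed on a chromosome. Their gene models spanned a median of 4709 bp, against 4148 bp over all genes with the minimum.

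A pair of the genes, picked out after the positions were seen, were direct neighbours. Solyc05g056350.2 (chromosome 5, 65689828 to 65696060) ends 3007 bp before Solyc05g056360.1 (65699068 to 65701763) starts, with no gene of the table between them. The first had 5.61, 7.85 and 9.83 in LP, 16.96, 12.59 and 11.72 in PZ, and 12.4, 16.01 and 10.21 in CZ. It was more abundant than its neighbour, the gene with the widest gap, and its own gap was narrow, with LP3 close to CZ3.

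On chromosome 6 a stretch of 114051 bp (44645837 to 44759887) held 20 genes, of which 5 reached the minimum and 3 were among the 59. Solyc06g072380.2 had 1.73, 0.6 and 1.09 in LP, 4.63, 3.7 and 2.07 in PZ, and 4.62, 3.33 and 10.21 in CZ. Solyc06g072480.1 had 4.75, 7.24 and 10.92 in LP, 18.5, 11.11 and 16.55 in PZ, and 16.15, 11.34 and 13.61 in CZ. Solyc06g072570.2 had 7.77, 8.45 and 9.83 in LP, 21.59, 24.43 and 11.03 in PZ, and 12.69, 25.34 and 18.72 in CZ. The other genes between them did not share the pattern: Solyc06g072470.2 had 15.98, 31.38 and 9.83 in LP, 10.02, 8.14 and 14.48 in PZ, and 10.96, 21.34 and 23.82 in CZ, and Solyc06g072490.2 also overlapped between the zones. The stretch was picked out after the positions were seen, and no test was made of it.

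Gene models of 11 of the 59 genes overlap another gene of the table. Whether the counting used the strand is not given in the sources used here, so reads of such pairs could be exchanged. Beside the pairs named above, Solyc01g102810.2 overlaps Solyc01g102820.2, which averaged 4.07 in LP, 2.05 in PZ and 3.34 in CZ, with LP highest. In the pairs not named the overlapping gene averaged under 4 normalized counts in every zone, but many of the 59 genes were as weak. The highest of these was Solyc09g061440.2, which averaged 1.90 in LP, 3.85 in PZ and 3.31 in CZ. Solyc09g061430.2, which it overlaps, averaged 0.947 in LP, 5.48 in PZ and 3.94 in CZ. Whether exchanged reads bear on membership was not tested.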

How the data were processed

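The values are normalized counts per gene from CEL-Seq libraries of LP, PZ and CZ tissue, a signal deposited by the authors as 1 table. According to their methods, 36 bp reads were aligned with Bowtie2 2.1.0 to the tomato and chloroplast genomes, counted by an HTSeq-based script and analysed with DESeq2 1.4.0. Molecular identifiers were read, but whether reads with the same identifier were collapsed, and how the counts were normalized, is not given in the sources used here. Each library has 1 step of which 100% of its nonzero values are whole multiples (tolerance 0.0051), so reads could be recovered. Libraries held 40286 to 144665 reads on genes, which limits what can be seen of weak genes.

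The rule was applied to the deposited values. The genes and lists were chosen with earlier results of these data known. A linear model of limma 3.58.1 (R 4.3.3), with the zones as groups and a variance trend, took log2(normalized count + 1) over the 4044 genes with at least 6 in a library, with Benjamini-Hochberg adjustment, and genes were called from an adjusted p of 0.05 and a change of 1.5-fold. Contrasts were LP minus the mean of PZ and CZ, and PZ minus CZ. The methods call the libraries of a zone biological replicates. Whether each came from other plants is not given in the sources used here, and calls measure the spread between these libraries. Within zones they differed beyond sampling noise (chi-square per gene 2.79 to 3.91).

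Named were the genes described in a list, the 10 with the widest gap, the 5 most abundant, those called, the 3 with the narrowest gap, the 3 nearest outside, and the study's own genes reduced in LP. Others are marked as chosen after their values were seen. Lists by description, epidermis and vascular markers and promoter motifs were not run as lists, since 2.69% of the genes with the minimum had a description and 0 entries of the RefSeq table carry these IDs. Alternatives were other minimums, libraries scaled to equal totals or by TMM, pseudocounts of 0.5 and 2, count tests on the recovered reads (edgeR 4.0.16, DESeq2 1.42.0), a replicate block, and each library left out. The limma and edgeR fits were tried on simulated reads with known decreases in LP. The rule, the recovery of reads and the DESeq2 fit were not tried in this way. Python 3.11.15 with numpy 2.4.6, pandas 2.3.3 and matplotlib 3.10.9 was used.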

Additional observations from a re-analysis of the deposited data

How the results depend on the processing

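The rule gave 100 genes with a minimum of 3, 121 with none, 32 with a minimum of 10 and 37 where a zone mean had to reach 6. All 59 genes were among the 100 and the 121, and the 32 and 37 were all among the 59. With the same total for each library it gave 64 genes, 52 of the 59 among them, and with TMM scaling 42, 32 of the 59 among them. Without each library in turn it gave 68 to 162 genes. The highest counts came without an LP library (132 without LP1, 162 without LP2 and 138 without LP3), where all 59 remained and fewer values had to be low. Without a PZ or CZ library 49 to 56 of the 59 remained.

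The count called lower in LP was 2. It was 1 where a zone mean had to reach 6, with no filter, with TMM scaling, with edgeR and with DESeq2, Solyc01g100030.2 in each case, and 1 to 2 without each library in turn (without LP1, LP2, PZ2, CZ2 or CZ3 it was 1). It was 3 with a pseudocount of 0.5, with Solyc04g054800.2 added. Over all genes, limma called 37 genes in this contrast, 29 of them higher in LP, while DESeq2 called 17, 16 of them higher. No gene of the 59 was called between PZ and CZ under any alternative. TMM scaling moved the median of all genes for PZ minus CZ to -0.15 on the log2 scale, against 0.08 without it, a shift of -0.23.

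With the replicate block 3 of the 59 genes were called, Solyc04g054800.2 in addition, and 49 of all genes. Deviations of same-numbered libraries correlated at 0.027 to 0.112, all positive. Those of differently numbered libraries correlated at -0.096 to 0.043, most of them negative. Whether equal numbers mark shared plants or sections is not given in the sources used here. The main fit used no pairing, and the replicate block gives the calls with it. For the 25 genes followed under the 17 alternatives there were 409 differences between LP and the meristem, and 0 changed sign. A gene that missed the minimum of an alternative gave no value there. The rule put every LP value below the meristem, which fixes the sign wherever the libraries were not rescaled. Nothing is therefore read from the lack of reversals. In 387 of the 409 the shift from the main value was smaller than the gene's SD between libraries within zones. The other 22 moved further, 16 of these with edgeR or DESeq2. This SD is not the SE of the difference. At this depth a gap of 1 read decides membership for 35 genes.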
